A study of Homo sapiens with 12 samples.

Results

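The comparison described here set 2 arrays of MDA-MB-231 cells transfected with siRNA-1, a small interfering RNA against DOT1L, against 2 arrays of vehicle-treated control cells, 4 of the 12 arrays of the study. The members were chosen by sample title. The siRNA-1 cells received 10 nM siRNA with X-tremeGENE reagent for 7 days, and the control cells received 0.1% DMSO for 14 days without transfection. The other 8 arrays held cells given the DOT1L inhibitors compound 1 (EPZ004777, 1 and 5 μM) or compound 2 (2 and 10 μM) for 14 days, in 4 groups of 2, and they serve below for comparison with siRNA-1. They also entered the fit, the detection filter and the centring, and with the siRNA-1 and control arrays alone the calls given below would number 638 higher and 596 lower. No array of cells transfected with a control siRNA was analysed here, so DOT1L silencing, transfection and treatment time cannot be told apart. Both arrays of a group are labelled as biological replicates, with nothing said of separate cultures, so p-values measure only the spread between these arrays.

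DOT1L methylates lysine 79 of histone H3 (H3K79), a mark that lies over the bodies of transcribed genes. The enzyme is best known from leukaemias with rearranged MLL, in which it keeps HOX genes active. An siRNA guides the cell's RNA interference machinery to a matching messenger RNA, which is then cut. MDA-MB-231 is a breast cancer cell line without estrogen receptor, and it has the features of mesenchymal cells. Several gene programmes named below have a known master regulator. ATF4 is a transcription factor whose translation increases under amino acid shortage and other stress, and it switches on genes for amino acid synthesis, amino acid transport and tRNA charging. Interferon-stimulated genes carry binding sites for the STAT and IRF factors that interferons activate, and CIITA switches on the genes of MHC class II.

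Values are normalized signals in linear units: bead signals after background correction (with 16 units added) and centring of each array. Fold changes are differences of mean log2 signal, siRNA-1 minus control, with their standard error (SE) from limma. Genes are described as called, risen or fallen where the p, adjusted after Benjamini and Hochberg, was below 0.05 over all 17910 probes that were detected on both arrays of at least 1 group. Each gene is represented by its brightest probe. Of 421 genes with more than 1 tested probe and a call on any of them, 127 had every tested probe called in 1 direction. Probes called in opposite directions were found for 0 genes.

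The array carried 1 probe for DOT1L. It read 44.1 and 40.9 in the control cells and 46.4 and 38.3 with siRNA-1, and was not detected over background on any of these arrays. The groups overlapped (log2 fold change -0.01, SE 0.15, limma adjusted p = 0.978), and the arrays gave no measure of the silencing. The labelled cell line was checked on its markers. VIM, the mesenchymal filament vimentin, had 8810 and 7121 on the control arrays and 7853 and 7280 with siRNA-1. The hyaluronan receptor CD44 had 7242 and 7205 on the control arrays and 7148 and 7232 with siRNA-1. Both were bright on all 4 arrays, and the probes of ESR1, PGR and CDH1 were not detected on any. Of the 6 tested markers of this line, EGFR and AXL were called lower with siRNA-1. AXL was not called without siRNA-1 replicate 1 (adjusted p = 0.0589). Among markers of other cell types, PECAM1, PDGFRB and AGR2 were called higher. The call of PDGFRB was lost on leaving out any of the 4 arrays, and that of AGR2 without control replicate 2 or siRNA-1 replicate 2. The probes of PTPRC, CD3D, COL1A1, CDH5 and KDR were not detected on any array. Other listed markers were: the leukocyte marker CD68 on all 12, a CD79A probe on 10, and a probe of the fibroblast marker DCN on 9. The luminal markers KRT19 and EPCAM (brightest probe) were also detected on all 12 arrays, and SPARC, listed for the line itself, on none. Whether cells of another kind contributed was not tested.

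Between the siRNA-1 and control arrays 1831 probes differed, 10.2% of those tested, of which 888 (4.96%) were higher with siRNA-1 and 943 (5.27%) lower. Taken by gene, 1277 of 10773 (11.9%) were called, 646 higher (6.00%) and 631 lower (5.86%). Among called genes the median change was 1.70-fold for rises and 1.63-fold for falls. More than 2-fold changes were seen for 174 called genes that rose and 145 that fell. At an unadjusted p below 0.05 and more than 4-fold, 15 genes (0.139%) were higher and 24 (0.223%) lower, and 46 probes (0.257%) passed in either direction. The 46 probes became 196 without background correction, 205 in the series matrix values and 16 with 50 units added. The split depended on the scaling: the log2 values of the series matrix gave 826 probes higher and 509 lower, so that 61.9% of calls were rises against 48.5% above. Leaving out siRNA-1 replicate 2 left 413 higher and 369 lower. Without siRNA-1 replicate 1 the counts were 493 and 549, and without control replicate 2 they were 506 and 610.

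**Figure D1:**
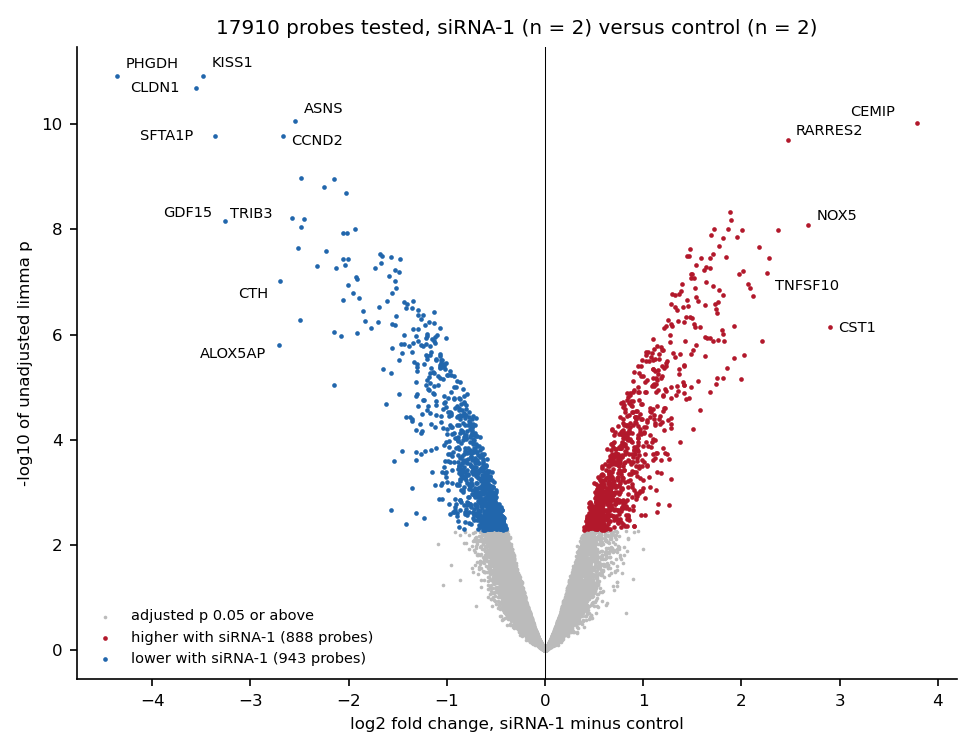
Log2 fold change (siRNA-1 minus control) of each of the 17910 tested probes against the -log10 of its unadjusted limma p. Red points are the 888 probes called higher and blue points the 943 called lower. PHGDH lies farthest to the left at -4.36 and CEMIP farthest to the right at 3.79.

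On this scale, with 16 units added, the gene with the largest fall belongs to serine synthesis. The order of genes undetected in a group depends on that setting. PHGDH, the first enzyme of the pathway that makes serine from a glycolytic intermediate, had a signal of 3586 and 2547 on the control arrays and 165 and 132 with siRNA-1. The groups lay far apart, and PHGDH fell by 4.36 on the log2 scale (SE 0.17, limma adjusted p = 1.1e-07). PSAT1, the second enzyme, had 4747 and 6788 on the control arrays and 1561 and 1494 with siRNA-1, and fell by 1.89 (adjusted p = 4.02e-05). The mitochondrial folate enzymes moved the same way. SHMT2, which passes the carbon of serine to folate, fell by 1.13 (adjusted p = 8.53e-05), MTHFD2 fell by 1.25 (adjusted p = 0.00143), and MTHFD1L fell by 1.06 (adjusted p = 0.00028). Of 14 tested serine, glycine and folate genes, 6 were lower (42.9% against 5.86% of all genes) and 0 higher. The median of the list was -0.48 against -0.03 over all genes. The sixth was PSPH, the last enzyme of serine synthesis, at -1.05, and at -0.56 and not called on a dimmer probe. Its call was lost without control replicate 2 (adjusted p = 0.0807) and without siRNA-1 replicate 2 (adjusted p = 0.0829). The cytosolic enzymes SHMT1 (0.39) and MTHFD1 (-0.36) were not called.

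PHGDH stood within a wider fall of the amino acid response. Of 29 tested genes of the ATF4 list, 24 were called lower and 0 higher, or 82.8% of the list against 5.86% of all genes. The list median was -1.21, or -1.04 with genes not detected with siRNA-1 set to their bound, and 20 to 25 members were lower under the alternatives tried. Among regulators, ATF4 itself had 6877 and 7837 on the control arrays and 3633 and 3539 with siRNA-1, and fell by 1.03 (SE 0.17, limma adjusted p = 0.0022). DDIT3, the stress factor CHOP, fell by 1.59 (adjusted p = 2.12e-05), and ATF3 fell by 1.66 (adjusted p = 1.39e-05). TRIB3, a pseudokinase that restrains ATF4, had 2797 and 4170 on the control arrays and 622 and 530 with siRNA-1 (fell by 2.57, adjusted p = 7.42e-06). ATF5, another factor of the list, had a log2 fold change of 0.09 and was not called.

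The enzymes of the list fell strongly. ASNS, which makes asparagine, was among the brightest genes of the list, with 9541 and 10224 on the control arrays and 1779 and 1615 with siRNA-1. Its replicates lay close together, and it fell by 2.54 (SE 0.12, limma adjusted p = 3.37e-07). CTH, which makes cysteine from cystathionine, had 500 and 876 on the control arrays and 110 and 95 with siRNA-1, a fall of 2.70 (adjusted p = 2.48e-05) with a wide gap between the controls. PCK2, the mitochondrial phosphoenolpyruvate carboxykinase, fell by 2.13 (adjusted p = 1.79e-05), and PYCR1, which makes proline, fell by 1.29 (adjusted p = 9.9e-05). The secreted stress hormone GDF15 had 1217 and 880 on the control arrays and 133 and 88.1 with siRNA-1. It fell by 3.25 (SE 0.22, adjusted p = 7.48e-06), the largest fall of the list.

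Among the 8 tested amino acid carriers of the list, 6 were lower and 0 higher, against 5.86% and 6.00% of all genes. SLC7A5, the large neutral amino acid carrier, had 4376 and 5670 on the control arrays and 2073 and 1982 with siRNA-1 (fell by 1.30, limma adjusted p = 0.000143). Its partner chain SLC3A2 fell by 1.01 (adjusted p = 0.00339), and the glutamine carrier SLC1A5 fell by 1.34 (adjusted p = 4.39e-05). SLC7A11, the cystine carrier, was not detected on either siRNA-1 array and was at least 2.05-fold lower (adjusted p = 0.00176). Such a bound sets the mean of the group with signal against, on each array of the other group, the higher of the probe's own signal and the lowest signal counted as detected there. SLC38A2 (-0.03) and SLC7A1 (-0.42) were not called.

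The cytosolic aminoacyl-tRNA synthetases, which load amino acids onto their tRNAs, lay below 0 in 17 of 18 cases, though not all were called. Of 18 tested, 9 were lower (5.86% of all genes) and 0 higher, with a median of -0.57. SARS1, the seryl enzyme, had 1530 and 1473 on the control arrays and 558 and 511 with siRNA-1 (fell by 1.49, limma adjusted p = 1.97e-05). WARS1, for tryptophan, fell by 1.29 (adjusted p = 6.73e-05), and MARS1, for methionine, fell by 1.20 (adjusted p = 0.000123). QARS1 (-0.03), FARSA (-0.02) and FARSB (0.13) were among the 9 not called, as were TARS1 (-0.66) and NARS1 (-0.42). The call of LARS1 (-0.47) was lost on leaving out any of the 4 arrays. In the unfolded protein response of the endoplasmic reticulum, 4 of 18 tested genes were lower and 0 higher, with a median of -0.07, and 2 were lower with siRNA-1 replicate 1 or replicate 2 left out. PPP1R15A, which restores translation after stress, fell by 0.96 (adjusted p = 0.0015), and XBP1 fell by 0.71 (adjusted p = 0.00431). HSPA5, the main chaperone, was at -0.58 but was not called without control replicate 1, siRNA-1 replicate 1 or siRNA-1 replicate 2. The chaperones HSP90B1 (0.10) and CALR (0.16) were not called.

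**Figure D2:**
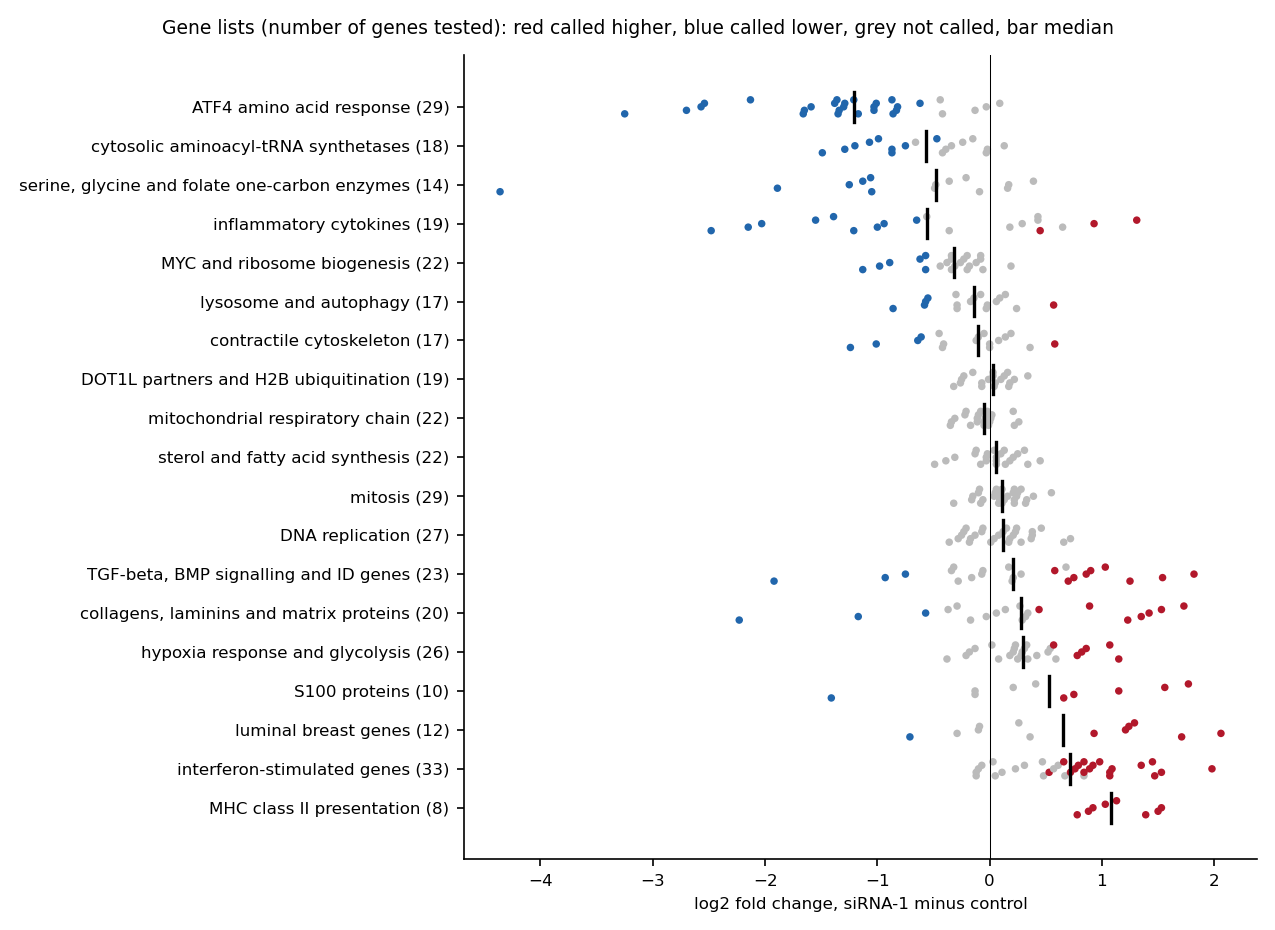
Log2 fold change (siRNA-1 minus control, horizontal axis) of each tested gene in 19 of the 46 pathway lists, picked to show lists with many, few and no calls. Red points were called higher, blue points lower and grey points not called, and the black bar is the list median. The ATF4 list has its median at -1.21 and MHC class II at 1.08.

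Short promoter stretches of 6 called genes are shown because their lists had many calls in 1 direction and none in the other, and because each stretch holds the letters known as the binding motif of its regulator. The sequences are from RefSeq on GRCh38.p14, read 5′ to 3′ on the strand of the gene, and capitals mark the motif on either strand. The first 3 are interferon-stimulated genes with the interferon-stimulated response element, searched as GAAANNGAAA, and matches may overlap each other as in ISG15. The last 3 are genes of amino acid metabolism with the ATF4 element, searched as TGATGNAA.
IFIT1 (chr10:89392495-89392544, plus strand): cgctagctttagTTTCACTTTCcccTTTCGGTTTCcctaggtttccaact
ISG15 (chr1:1013372-1013421, plus strand): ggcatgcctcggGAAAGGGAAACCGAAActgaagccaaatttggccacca
OAS3 (chr12:112938319-112938368, plus strand): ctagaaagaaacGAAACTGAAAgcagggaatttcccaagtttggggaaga
ASNS (chr7:97872439-97872488, minus strand): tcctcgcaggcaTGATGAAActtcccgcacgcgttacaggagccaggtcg
MARS1 (chr12:57488052-57488101, plus strand): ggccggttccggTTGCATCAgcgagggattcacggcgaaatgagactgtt
AARS1 (chr16:70289656-70289705, minus strand): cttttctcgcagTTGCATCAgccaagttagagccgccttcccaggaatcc

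Windows of 300 bases, from 250 before the start site to 50 after it, were searched. GAAANNGAAA stood in 19 of the 29 tested interferon-stimulated genes with a window (65.5%) and in 3.65% of all 27305 windows. It stood in the promoters of IFIT1 and ISG15, which were called higher, and also in those of IFIT5 (log2 fold change 0.11), IFI44L (-0.12) and BST2 (-0.07), which were not called. TGATGNAA stood in 5 of 25 windows of the ATF4 list (20.0%), 5 of 15 of the synthetases (33.3%) and 1 of 12 of the serine, glycine and folate list (8.3%), against 3.67% of all windows. Among the synthetases it stood in MARS1, AARS1 and IARS1, which were called lower, and in NARS1 (-0.42) and TARS1 (-0.66), which were not. PHGDH, TRIB3 and CTH were not among the genes with a match. Not every tested gene had a window (25 of 29 in the ATF4 list), and whether these genes had one is not given here. A match is a description of the letters and does not show that a factor was bound.

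Interferon-stimulated genes held many rises with siRNA-1. Of 33 tested, 18 were called higher and 0 lower (54.5% against 6.00% of all genes), and the list median was 0.72, or 0.67 with genes undetected in a group set to their bound. IFIT1, which binds foreign RNA ends, had 332 and 416 on the control arrays and 1504 and 1421 with siRNA-1. Both siRNA-1 arrays lay far above both controls, and IFIT1 rose by 1.98 (SE 0.16, limma adjusted p = 2.03e-05). OAS2, an enzyme that signals antiviral RNA decay, had 266 and 271 on the control arrays and 769 and 787 with siRNA-1, with a rise of 1.53 (adjusted p = 3.91e-05). IFI44 had 245 and 257 on the control arrays and 692 and 698 with siRNA-1, a rise of 1.47 (adjusted p = 1.39e-05). These replicates nearly coincided. The RNA sensors RIGI (0.89, adjusted p = 0.00255) and IFIH1 (0.79, adjusted p = 0.00343) rose less. ISG15, a ubiquitin-like protein, rose by 0.92 (adjusted p = 0.00453), but was not called without siRNA-1 replicate 1 (adjusted p = 0.0515).

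The response was uneven within the list. The transcription factors IRF1 (0.31), IRF7 (-0.10) and IRF9 (0.03) were not called, nor were IFI44L (-0.12), BST2 (-0.07) and EIF2AK2 (-0.12), the kinase PKR. Of 12 tested genes of RNA interference and RNA sensing, 1 was called, the adaptor MAVS (0.62). This is 8.33% of the list called higher, near the 6.00% of all genes. That call was lost on leaving out any of the 4 arrays in turn. DICER1 (-0.16) and AGO2 (-0.30), the slicer of RNA interference, were not called.

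All 8 tested genes of MHC class II presentation were called higher, against 6.00% of all genes, and 3 further genes of the list were not tested. HLA-DQB1 and HLA-DPB1 entered the test with no control array detected. Of probes detected on all 12 arrays 5 were tested and 5 called higher. The class II chain HLA-DRA had 1842 and 2247 on the control arrays and 5406 and 6348 with siRNA-1, and rose by 1.53 (SE 0.13, limma adjusted p = 3.01e-05). HLA-DPA1, another class II chain, had 922 and 1006 on the control arrays and 2433 and 2617 with siRNA-1 (1.39, adjusted p = 3.32e-05). The master regulator CIITA was dim, with 53 and 57 on the control arrays and 100 and 102 with siRNA-1, and rose by 0.88 (adjusted p = 0.00336). Both siRNA-1 arrays exceeded both controls for these genes. CD74, the invariant chain, rose by 1.03 (adjusted p = 0.000204). HLA-DQB1 was at least 1.52-fold higher, and lost its call without control replicate 2 (adjusted p = 0.112) or siRNA-1 replicate 2 (adjusted p = 0.136). Class II chains resemble each other in sequence, so probes may share signal between them. In class I presentation 3 of 13 tested genes were higher and 0 lower, led by HLA-B (0.94, adjusted p = 0.00455). The peptide transporter TAP1 (0.38) and B2M (0.32) were not called. Without control replicate 2, siRNA-1 replicate 1 or siRNA-1 replicate 2, 1 class I gene was called, and without control replicate 1 there were 5, as with quantile normalization.

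**Figure D3:**
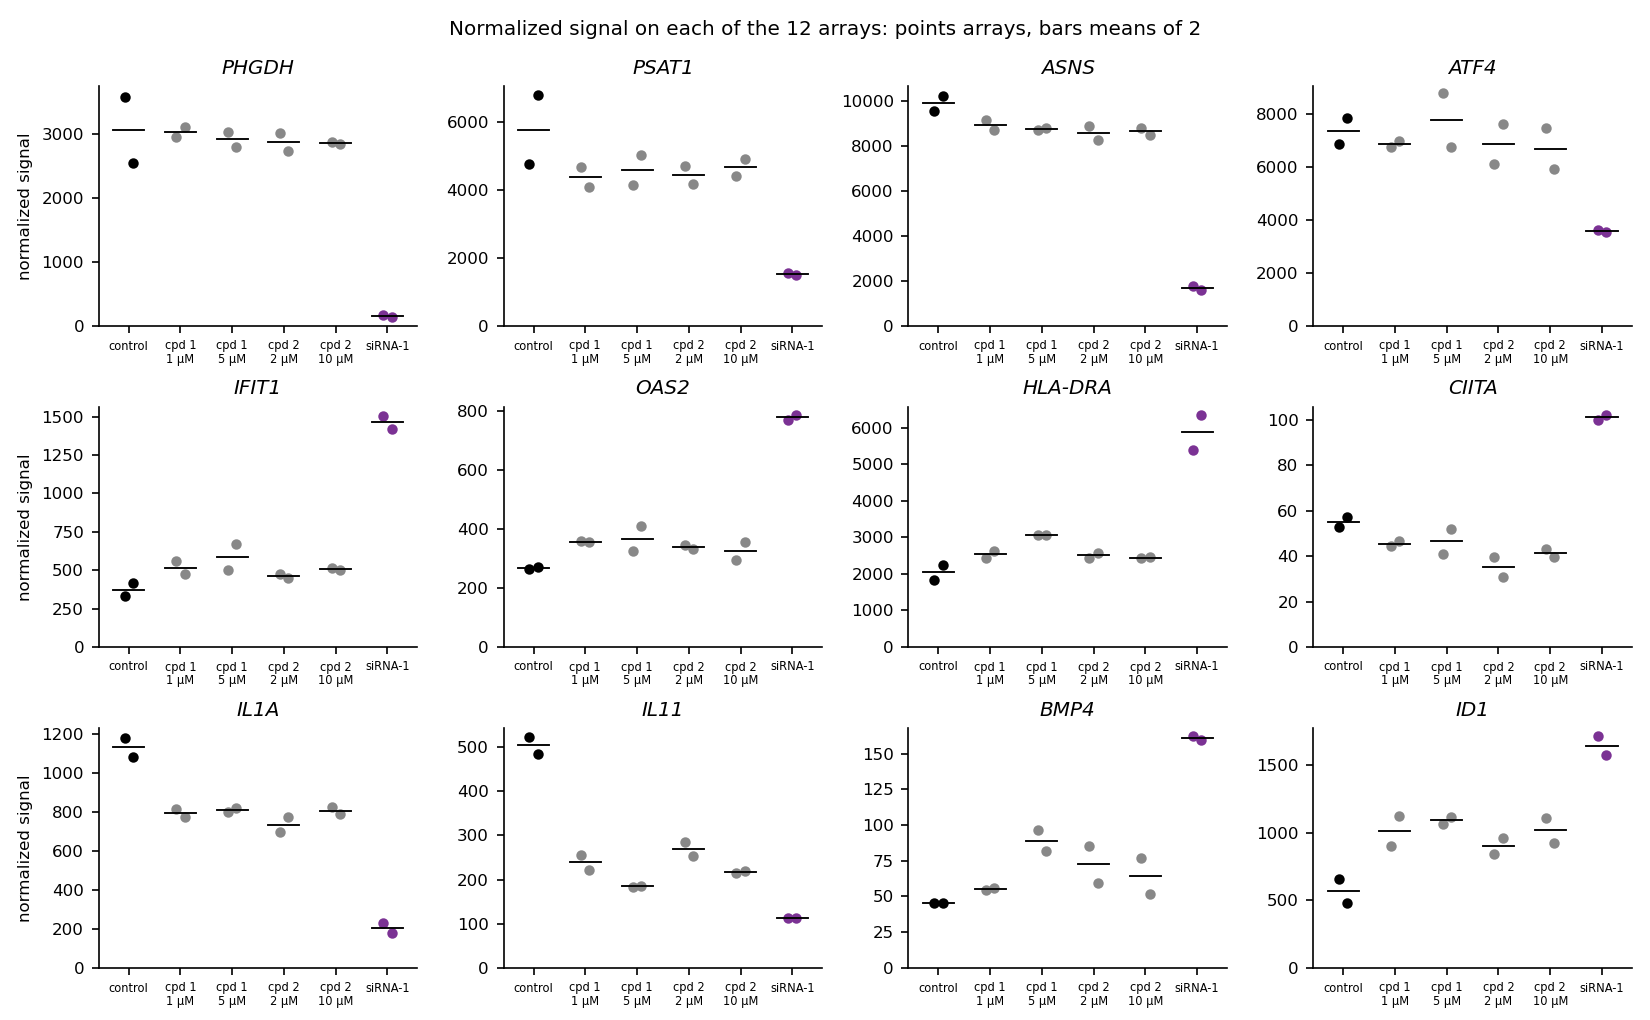
Normalized signal (vertical axis, linear from 0) of 12 genes on each of the 12 arrays, by group. Points are arrays and bars the mean of 2 (black control, grey compounds 1 and 2, purple siRNA-1). PHGDH is 2742 to 3121 on the inhibitor arrays and 132 and 165 with siRNA-1, and HLA-DRA is highest on the siRNA-1 arrays at 5406 and 6348.

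Inflammatory cytokines held more falls than rises. Of 19 tested, 9 were lower and 3 higher, against 5.86% and 6.00% of all genes, with a median of -0.56. IL1A, an alarm cytokine of the interleukin 1 family, had 1178 and 1079 on the control arrays and 231 and 176 with siRNA-1, and fell by 2.48 (SE 0.14, limma adjusted p = 1.99e-06). IL1B, the other agonist of the interleukin 1 receptor, had 1480 and 1305 on the control arrays and 359 and 324 with siRNA-1, and fell by 2.03 (adjusted p = 3.01e-06). IL11, a cytokine linked to bone metastasis, had 523 and 485 on the control arrays and 113 and 114 with siRNA-1, and fell by 2.15 (adjusted p = 1.99e-06). For all 3 the groups were well separated. IL6 fell by 0.94 (adjusted p = 0.00479), a call lost without siRNA-1 replicate 2 (adjusted p = 0.0648). CXCL8, the neutrophil chemokine interleukin 8, was at -0.56 and not called. The chemokine gene CCL2, not detected on the controls, was at least 1.41-fold higher (adjusted p = 0.000208). The 9 falls became 6 without siRNA-1 replicate 2, and the 3 rises became 1 without siRNA-1 replicate 1 and 2 without control replicate 1 or siRNA-1 replicate 2.

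Regulators of these genes were mixed. NFKBIA, the inhibitor of NF-kB, had 3844 and 3697 on the control arrays and 6153 and 6930 with siRNA-1, and rose by 0.79 (limma adjusted p = 0.00112). Of 13 tested NF-kB genes, 2 were higher and 1 lower, against 6.00% and 5.86% of all genes, so that the single fall was near the background. The call of PTGS2 was lost without control replicate 1, siRNA-1 replicate 1 or siRNA-1 replicate 2, and that of NFKB2 on leaving out any of the 4 arrays. The immediate early list held 4 falls (23.5% against 5.86% of all genes) and 0 rises among 17 tested. DUSP1, a phosphatase that switches off MAP kinases, had 732 and 660 on the control arrays and 117 and 164 with siRNA-1, and fell by 2.33 (SE 0.19, adjusted p = 1.73e-05). MYC, the growth regulator, had 2423 and 2521 on the control arrays and 1122 and 1132 with siRNA-1, and fell by 1.13 (adjusted p = 5.88e-05). A dimmer MYC probe was at -0.55 and not called (adjusted p = 0.312). JUN (0.30) and FOSL1 (-0.24) were not called. Of the immediate early falls, EGR1 (-0.55) and DUSP5 (-0.44) lost their calls on leaving out any of the 4 arrays. With centring on all probes or in the series matrix values 2 falls were called. In the list of MYC and ribosome biogenesis 6 of 22 were lower (27.3% against 5.86% of all genes) and 0 higher, with a median of -0.32. The count was 3 without control replicate 2, 2 without siRNA-1 replicate 2 and 3 in the series matrix values.

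Genes of cell adhesion and of metastasis held some of the largest falls. CLDN1, a tight junction protein, had 629 and 709 on the control arrays and 50.7 and 63.8 with siRNA-1, and fell by 3.55 (SE 0.14, limma adjusted p = 1.24e-07). KISS1, the precursor of kisspeptin and a metastasis suppressor, had 400 and 399 on the control arrays and 35.6 and 36.0 with siRNA-1, where it was not detected. It was at least 8.46-fold lower (adjusted p = 1.1e-07). The counts of the 2 lists below stand against 6.00% of all genes called higher and 5.86% called lower. Of 9 tested tight junction and apical epithelial genes, 3 were lower and 1 higher, and the falls became 1 without control replicate 1 or siRNA-1 replicate 2. The series matrix values gave 2 falls and 3 rises. The rise was SCNN1A, a subunit of the epithelial sodium channel, with 403 and 257 on the control arrays and 1245 and 1564 with siRNA-1 (rose by 2.12, adjusted p = 3.84e-05). The junction gene CLDN3 was at -0.67, and its call was lost without control replicate 1, control replicate 2 or siRNA-1 replicate 2. Metastasis suppressors did not share a direction: of 13 tested, 3 were higher (23.1%) and 2 lower (15.4%), and 2 and 1 among probes detected on every array. The tetraspanin CD82 rose by 1.30 (limma adjusted p = 3.68e-05).

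On the signal scale used here, with 16 units added, the gene with the largest rise was CEMIP, which codes for a hyaluronan-degrading protein. It had 42.5 and 33.1 on the control arrays, not detected, and 454 and 592 with siRNA-1, at least 10.0-fold higher (limma adjusted p = 3.37e-07). NOX5, a calcium-dependent NADPH oxidase, was also undetected on the controls (32.2 and 38.9) and had 259 and 199 with siRNA-1, at least 4.38-fold higher (adjusted p = 7.82e-06). Cystatins, inhibitors of cysteine proteases, held further rises. Of 17 tested cystatins and cathepsins, 5 were higher and 1 lower, against 6.00% and 5.86% of all genes. CST1 had 1307 and 531 on the control arrays and 5441 and 7096 with siRNA-1, a rise of 2.90 (SE 0.30, adjusted p = 9.5e-05). CST4 rose by 2.03 (adjusted p = 0.000216) and CST2 by 1.99 (adjusted p = 0.000456). For all 3, control replicate 1 lay well above control replicate 2. CST6, another secreted cystatin, was the member called lower (-0.69, adjusted p = 0.00606), and its call was lost without siRNA-1 replicate 2 (adjusted p = 0.0793). CST1, CST2 and CST4 are near-identical copies, so their probes may not separate them.

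Luminal genes, typical of the secretory cells of the breast, held several large rises. Of 12 tested, 6 were higher and 1 lower, against 6.00% and 5.86% of all genes, with a median of 0.65 (0.59 with bounds). XBP1, given above with the unfolded protein response, was the member called lower (-0.71, limma adjusted p = 0.00431). The mucin MUC1 had 454 and 298 on the control arrays and 1444 and 1636 with siRNA-1, and rose by 2.06 (SE 0.18, limma adjusted p = 2.69e-05). CA12, a carbonic anhydrase, rose by 1.71 (adjusted p = 2.88e-05), and TFF3, a trefoil peptide, rose by 1.24 (adjusted p = 0.000676). SPDEF, a transcription factor of secretory cells, had 195 and 181 on the control arrays and 432 and 438 with siRNA-1 (1.21, adjusted p = 9.67e-05). CD24, a surface protein of luminal cells, rose by 0.93 (adjusted p = 0.00435), but not without siRNA-1 replicate 2 (adjusted p = 0.0613). The keratins KRT18 (-0.29) and KRT19 (0.36) were not called, but a dimmer KRT18 probe was called lower (-0.95, adjusted p = 0.00829). ESR1 and FOXA1 were not detected on any array. The count of 6 became 4 without siRNA-1 replicate 2.

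Matrix genes moved in both directions, with 7 of 20 tested higher and 3 lower, against 6.00% and 5.86% of all genes. Among the rises, COL16A1 (0.44) lost its call on leaving out any of the 4 arrays. Among the falls, LOX (-0.57) lost it without control replicate 1, siRNA-1 replicate 1 or siRNA-1 replicate 2. COL5A1, a fibrillar collagen chain, had 326 and 309 on the control arrays and 1084 and 1017 with siRNA-1, and rose by 1.73 (SE 0.12, limma adjusted p = 7.82e-06). COL6A1 (1.42, adjusted p = 0.000555) and COL6A3, at least 2.12-fold higher (adjusted p = 9.47e-05), rose as well. COL8A1, a short-chain collagen, went the other way, with 1983 and 2512 on the control arrays and 444 and 509 with siRNA-1 (fell by 2.23, adjusted p = 1.35e-05). TIMP3, an inhibitor of matrix proteases, rose by 1.62 (adjusted p = 1.86e-05). MMP1, the interstitial collagenase, was at least 2.07-fold lower, and its call was lost without control replicate 1 (adjusted p = 0.0559) or siRNA-1 replicate 2 (adjusted p = 0.0599).

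In TGF-beta and BMP signalling 9 of 23 tested genes were higher and 3 lower, against 6.00% and 5.86% of all genes. The ligand BMP4 had 45.3 and 45.6 on the control arrays, not detected, and 162 and 160 with siRNA-1, at least 3.10-fold higher (limma adjusted p = 0.000143). FST, follistatin, which binds activin, had 674 and 921 on the control arrays and 219 and 199 with siRNA-1, and fell by 1.92 (adjusted p = 2.34e-05). The groups of both genes were apart. ID1, a target of BMP signalling, had 660 and 484 on the control arrays and 1714 and 1574 with siRNA-1, and rose by 1.54 (SE 0.17, adjusted p = 0.00016). The inhibitory SMAD6 was at least 2.19-fold higher (adjusted p = 0.00171), and the ligand TGFB2 fell by 0.93 (adjusted p = 0.000883). TGFBR1 (-0.07), TGFBR2 (0.21) and SMAD3 (-0.28) were not called. The 9 rises became 6 without control replicate 2, siRNA-1 replicate 1 or siRNA-1 replicate 2, and the 3 falls became 2 without siRNA-1 replicate 2. In the list of regulators of mesenchymal identity and cadherins 2 of 6 tested genes were higher and 1 lower, with a median of 0.10, and 11 were not tested. SNAI2, the factor Slug, rose by 0.86 (adjusted p = 0.0025), and the mesenchymal cadherin CDH11 rose by 1.73 (adjusted p = 4.79e-05). A dimmer SNAI2 probe was not called (0.64, adjusted p = 0.0603), and the fall was that of TGFB2.

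Several further genes of the largest changes belong to other families. RARRES2, the chemokine-like adipokine chemerin, had 45.4 and 52.7 on the control arrays and 262 and 281 with siRNA-1, a rise of 2.47 (SE 0.12, limma adjusted p = 4.4e-07). TNFSF10, the death ligand TRAIL, had 59.5 and 38.8 on the control arrays and 214 and 246 with siRNA-1, a rise of 2.26 (adjusted p = 2.03e-05). CSF1R, the receptor of macrophage colony-stimulating factor, had 45.7 and 53.9 on the control arrays and 267 and 219 with siRNA-1, a rise of 2.28 (adjusted p = 1.39e-05). All 3 were detected on 1 of the 2 control arrays. FCGBP, a mucus protein, rose by 2.38 (adjusted p = 7.82e-06), and PMEPA1, an inhibitor of TGF-beta signalling, rose by 2.18 (adjusted p = 1.24e-05). S100A4, a calcium-binding protein linked to metastasis, had 6422 and 5249 on the control arrays and 16237 and 18073 with siRNA-1, a rise of 1.56 (adjusted p = 4.46e-05). ALOX5AP, which feeds leukotriene synthesis, had 2261 and 876 on the control arrays and 219 and 211 with siRNA-1, and fell by 2.71 (adjusted p = 0.00016) with a wide gap between the controls. CASP4, an inflammatory caspase, had 1217 and 1214 on the control arrays and 440 and 383 with siRNA-1, and fell by 1.57 (adjusted p = 1.39e-05).

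The rest of the 15 largest rises and falls were of diverse kinds. NDP, norrin, a ligand of the Wnt receptor FZD4, had 41.8 and 67.0 on the control arrays and 232 and 257 with siRNA-1, and rose by 2.21 (limma adjusted p = 0.000143). CYP3A5, a drug-metabolizing cytochrome, rose by 2.09 (adjusted p = 3.05e-05), and ADIRF, an adipogenesis factor, rose by 2.02 (adjusted p = 1.93e-05). UCN2, the peptide hormone urocortin 2, rose by 2.01 (adjusted p = 7.82e-06). Among the falls, the long non-coding RNA SFTA1P had 1372 and 1018 on the control arrays and 106 and 125 with siRNA-1, and fell by 3.36 (SE 0.16, adjusted p = 4.39e-07). SEL1L3 had 266 and 126 on the control arrays, a wide gap, and was not detected with siRNA-1, at least 3.87-fold lower (adjusted p = 7.98e-05). MARCHF4, a membrane-bound ubiquitin ligase, fell by 2.45 (adjusted p = 7.42e-06), and BEX2, a small adaptor protein of the brain-expressed X-linked family, fell by 2.25 (adjusted p = 2.56e-06).

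**Figure D4:**
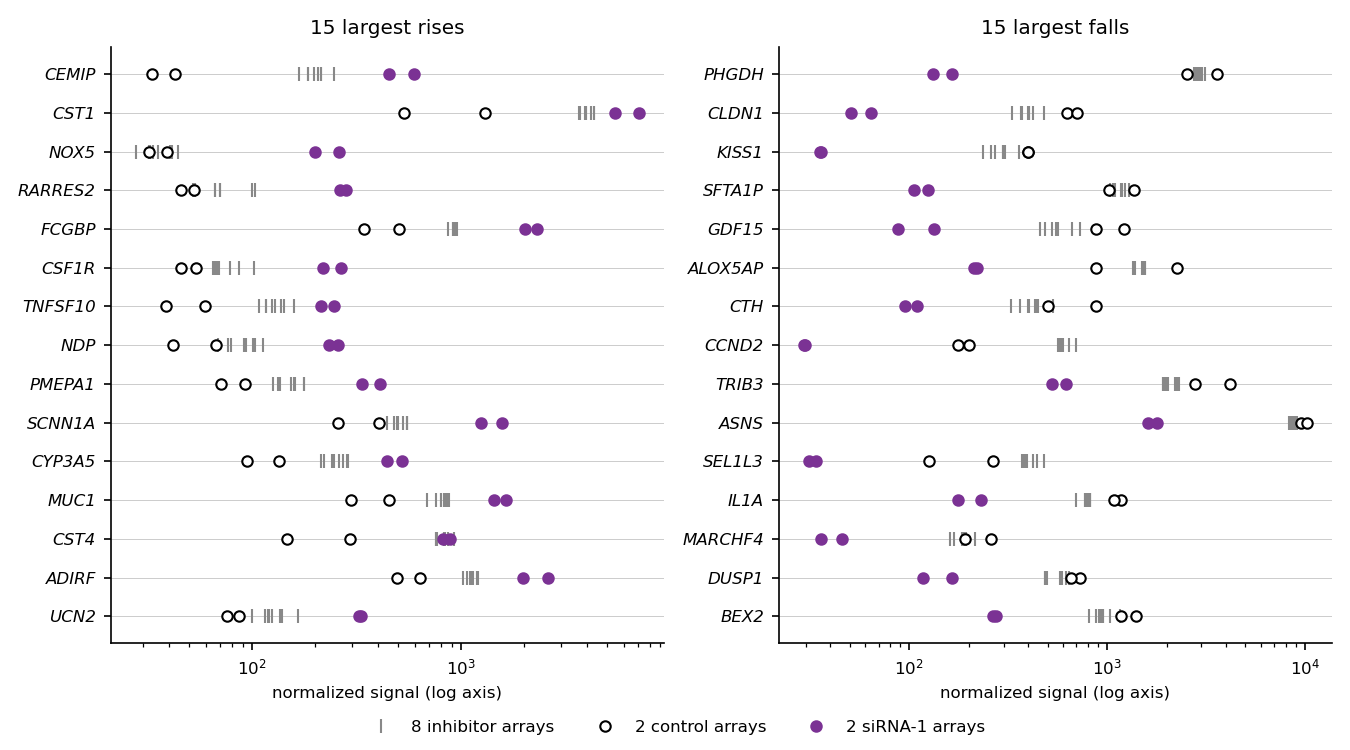
Normalized signal (log axis) of the 15 genes with the largest called rises (left) and the 15 with the largest called falls (right). Open circles are the 2 control arrays, purple circles the 2 siRNA-1 arrays and grey ticks the 8 inhibitor arrays. PHGDH and ASNS have their inhibitor arrays beside the controls, and for CST4 they lie beside the siRNA-1 arrays.

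Genes of DNA replication and mitosis had no calls. None of 27 tested DNA replication genes passed the limma test (5 at an unadjusted p below 0.05, 4 of them higher), and their median was 0.12. None of 29 mitotic genes passed it either (4 at an unadjusted p below 0.05), with a median of 0.11. The share of all genes at this unadjusted threshold is not given here, so these unadjusted counts cannot be set against a background. The proliferation marker MKI67 was at 0.22, and the replicative helicase subunits MCM2 and MCM5 were at -0.25 and -0.36. The replication list ranged from -0.36 to 0.72, with 17 genes above 0 and 10 below. Under some alternatives replication genes were called higher: 1 with 50 units added, 1 with centring on all probes and 2 with quantile normalization. A call higher also appeared without control replicate 2. Of 15 tested G1 cyclins, CDKs and CDK inhibitors, 3 were higher and 2 lower, against 6.00% and 5.86% of all genes. CCND2, a cyclin of the G1 phase, had 176 and 200 on the control arrays and 29.3 and 29.7 with siRNA-1, where it was not detected, and was at least 3.98-fold lower (adjusted p = 4.39e-07). CDKN1A, the inhibitor p21, had 2018 and 1867 on the control arrays and 3501 and 3336 with siRNA-1, and rose by 0.82 (adjusted p = 0.0012). CCND3 (0.65) was not called without siRNA-1 replicate 1 (adjusted p = 0.0707). CCNE1, the cyclin partner of CDK2, was at 0.58 and lost its call without control replicate 1, siRNA-1 replicate 1 or siRNA-1 replicate 2. CDK2 was at -0.45 (adjusted p = 0.0441) and lost it without control replicate 2, siRNA-1 replicate 1 or siRNA-1 replicate 2. The 3 rises became 1 without siRNA-1 replicate 1, and the 2 falls became 1 without control replicate 2, siRNA-1 replicate 1 or siRNA-1 replicate 2. CCND1 (0.35), CDK4 (-0.11) and E2F1 (-0.09) were not called. GADD45A, a growth arrest gene, fell by 1.13 (adjusted p = 0.000557).

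DOT1L's own partners and some metabolic lists were also without calls. None of 19 tested genes of DOT1L, its partners and histone H2B ubiquitination passed the limma test, and 0 did at an unadjusted p below 0.05, with a range of -0.32 to 0.34. The H2B ubiquitin ligase RNF20 was at -0.32 and the partner MLLT10 at -0.07. Of 9 tested HOX and MEIS genes, 1 was called lower (11.1% against 5.86% of all genes), HOXD1 (-0.73, adjusted p = 0.0179). That call was lost without control replicate 1, siRNA-1 replicate 1 or siRNA-1 replicate 2. No gene of the 22 tested in sterol and fatty acid synthesis was called (3 at an unadjusted p below 0.05), nor of the 22 of the respiratory chain (2 at an unadjusted p below 0.05). By adjusted p, 6.00% of all genes were called higher and 5.86% lower. These shares are no background for the unadjusted counts. In hypoxia and glycolysis 6 of 26 were higher and 0 lower, but 1 was called without control replicate 2 or siRNA-1 replicate 2, 2 without siRNA-1 replicate 1, and 11 with quantile normalization.

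siRNA-1 was also compared with the inhibitor arrays, a contrast that again holds the difference in transfection and in time. Tested directly against the mean of the 4 inhibitor groups, 3572 probes (19.9%) and 2443 genes (22.7%) differed. By gene, 1169 were higher (10.9%) and 1274 lower (11.8%) with siRNA-1. Without siRNA-1 replicate 1 or replicate 2 the probes numbered 1351 and 1355. PHGDH had 2742 to 3121 on the inhibitor arrays (median 2918) and was lower by -4.31 with siRNA-1 (limma adjusted p = 8.45e-09). ASNS had 8268 to 9133 there, with a difference of -2.36 (adjusted p = 5.06e-08). Neither gene was called with any inhibitor group against the control. In the ATF4 list 24 of 29 were lower with siRNA-1 than with the inhibitors and 1 higher, with a median of -0.92. Against the control, 4 and 0 members were lower with compound 1 at 1 and 5 μM, where 2.00% and 0.473% of all genes were. With compound 2 at 2 and 10 μM there were 5 and 1, against 1.29% and 0.780% of all genes. In MHC class II 7 of 8 were higher than with the inhibitors, and in the interferon list 18 of 33. DNA replication genes, without calls against the control, were higher than with the inhibitors in 13 of 27 cases and lower in 0, with a median of 0.40. Against the control, the median of this list was 0.12 with siRNA-1. It was -0.33 and -0.23 with compound 1 at 1 and 5 μM, and -0.39 and -0.36 with compound 2 at 2 and 10 μM. Much of the difference thus lay in lower values with the inhibitors.

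CCND2 had 562 to 698 on the inhibitor arrays, above both controls, with log2 fold changes of 1.59 to 1.77 in the 4 inhibitor groups, and was not detected on either siRNA-1 array (limma adjusted p = 7.91e-10 against the inhibitors). MMP1, also undetected with siRNA-1 and at least 2.07-fold lower than the control there, had 1.39 to 2.52 in the inhibitor groups. Its siRNA-1 call was lost without control replicate 1 or siRNA-1 replicate 2. Other large rises were not called against the inhibitors. CST4 was 756 to 921 on the inhibitor arrays against 815 and 884 with siRNA-1 (difference 0.05, SE 0.19, adjusted p = 0.88). CST2 (0.19, adjusted p = 0.574) and CST1 (0.63, adjusted p = 0.0843) were likewise not called. AKR1C3, an enzyme of steroid and prostaglandin metabolism, differed by 0.11 and was not called, whereas it rose by 1.68 against the control (adjusted p = 1.79e-05). Its probe may share signal with the close relatives of the AKR1C family. CEMIP was between, at 168 to 247 on the inhibitor arrays, and was higher with siRNA-1 by 1.37 (adjusted p = 5.71e-05).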

How the data were processed

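Expression in MDA-MB-231 cells was measured on Illumina HT-12 bead arrays (version 4), 12 in 6 groups of 2. The intensity values, as deposited by the authors, were linear bead signals from BeadStudio, whose version is not given in the sources used here, after background subtraction and without normalization. The detection p-values, as deposited by the authors, stood in another row order than the signals (rank correlation -0.0041 to 0.0029), and were therefore assigned within each array by rank of signal. The authors also deposited log2 values in the series matrix, derived from the same signals less each array's median, which served as an alternative. The number of arrays limits the precision. Of 47324 lines 2 were damaged and left out. Per array, 34.0% to 36.7% of probes were detected at p below 0.05, and replicates correlated at r = 0.9909 (control) and 0.9935 (siRNA-1).

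Signals were corrected with the normexp model (offset 16) of limma 3.58.1 in R 4.3.3, put on the log2 scale and aligned at the median of the 11807 probes with a detection p below 0.01 throughout. The tests took the 17910 probes (13790 with a symbol) that some group had detected in duplicate. The limma model held 1 mean for each of the 6 groups (6 residual and 5.59 prior degrees of freedom), with p-values adjusted after Benjamini and Hochberg. The median 95% interval reached 0.34 log2 to either side. The fit was tested on simulated data. Gene symbols were those of the platform annotation, checked by Entrez identifier.

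Named genes were DOT1L, the 15 largest called rises and falls without overlap between groups, and in each list the 3 largest called rises and falls with members central to its role. Further list members were named after their values were seen. The members and the 51 gene lists were chosen with earlier results of these data known. Lists were described by counts and medians, without a set test. Promoters were RefSeq windows of GRCh38.p14, the first listed start site of each gene. Alternatives were other background correction, offset, centring, normalization and detection filters, the series matrix, a fit to the 4 arrays alone, the replicate number as block, and fits without 1 array. The comparison of siRNA-1 with the inhibitor groups was run under alternatives added after seeing the data. The sequence of siRNA-1 is not shown. Python 3.11.15, pandas 2.3.3 and matplotlib 3.10.9 were used for tables and plots.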

Additional observations from a re-analysis of the deposited data

How the results depend on the processing

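With siRNA-1 against control, 888 probes were higher and 943 lower. Falls numbered 509 in the series matrix values and 596 in a fit to the siRNA-1 and control arrays only. Leaving out each array gave 413 to 777 rises and 369 to 677 falls. Probes past an unadjusted p below 0.05 and 4-fold numbered 46, with 196 without background correction, 16 with an offset of 50 and 205 in the series matrix values, and 36 to 56 on leaving out each array. Of 147 named genes, 99 kept their call, or the lack of one, in every alternative that gave them a value. Only 122 had a value when probes had to be detected on all 12 arrays. A kept call does not mean a kept size, as CCND2 ranged from -6.39 to -1.76. The median fold change of all probes moved from -0.05 to between -0.08 and 0.03. Against the 4 inhibitor groups 3572 probes differed, and 1351 and 1355 did without siRNA-1 replicate 1 and replicate 2 (alternatives added after the data were seen). DOT1L, not detected, was -0.01 and turned to 0.02 with an offset of 50, 0.03 centred on all probes, 0.06 with quantile normalization, 0.06 in the series matrix values, 0.04 without control replicate 1 and 0.13 without siRNA-1 replicate 2, within -0.15 to 0.13 over the fits without 1 array. The cause of these shifts was not tested. With replicate number as a block 810 probes were higher and 832 lower. Deviations of same-numbered arrays correlated at -0.38 to 0.21. These values gave no sign of pairing by number, but they cannot show that the arrays were unpaired. The replicate numbers of compound 2 at 10 μM are exchanged between the series matrix and the bead signals, so their part in the block is uncertain. Changes of dim genes are limited by the lowest detected signal, 26.4 to 38.5 units in the bead signals before correction. That range does not apply to the normalized signals, which hold the added 16 units and the centring. Normalized signals above it can be undetected.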
